A study of Mus musculus with 6 samples.

Results

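Ionocytes are rare epithelial cells rich in proton pumps and chloride channels, and 8 mouse genes that mark them were followed here in sorted thymic tuft cells: the regulators Foxi1 and Ascl3, the chloride transport genes Cftr and Bsnd, and the proton pump genes Atp6v1b1, Atp6v1g3, Atp6v0d2 and Atp6v0a4. They were chosen by symbol, and all 8 were found among the 55471 genes of the count table. Tuft cells are chemosensory epithelial cells, here sorted from mouse thymus on the surface protein L1CAM and measured by RNA sequencing. Mice of both genotypes carried Ikzf1 fl/fl, alleles in which the gene of the transcription factor Ikaros is flanked for deletion by Cre recombinase. The labels give 3 samples as KO, which were Foxn1-Cre(+), and 3 as WT, which were Foxn1-Cre(-). Foxn1 is active across thymic epithelium, so recombination is not limited to tuft cells. Age and the number of animals behind a library are not given, so the p-values refer only to spread among the libraries, which may be partly technical. The table names its columns Ko1 to Ko3 and Het1 to Het3. Ko was matched to KO by name, and Het to WT because no other group was left.

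In airway, kidney, inner ear and salivary duct, the forkhead factor FOXI1 drives the ionocyte or intercalated cell program, and ASCL3 is a helix-loop-helix factor of ionocytes and duct cells. CFTR is the chloride channel altered in cystic fibrosis, and barttin, the product of Bsnd, is an accessory subunit of chloride channels in kidney and inner ear. The V-ATPase is a rotary proton pump with a cytosolic V1 part that splits ATP and a membrane V0 part that moves protons. Most cells use common forms of its subunits, whereas ionocytes and intercalated cells add their own forms of the B, G, d and a subunits. In the thymus, medullary epithelial cells take on programs of peripheral tissues, those of ionocytes and tuft cells among them.

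Library sizes, as whole reads recovered from the deposited values, were 12238428 to 17140843 in the 3 Ko libraries and 12429260 to 31435787 in the 3 Het libraries. Of the markers of tuft cells, 15 genes including Pou2f3, Trpm5 and Dclk1, none was at 0 in all libraries, and their summed normalized counts were 161499 to 180736 in Ko and 110767 to 168776 in Het libraries. Their limma log2 fold changes of Ko over Het were positive for 14 of the 15, with a median of 0.37 against -0.05 over all genes tested. With limma, 0 of the 15 had an adjusted p under 0.05, against 0.814% of all genes tested. Ikzf1 itself averaged 1584 ± 128 normalized counts in libraries labelled Ko and 254 ± 59.7 in libraries labelled Het (SD, n = 3 each; limma log2 fold change 2.66 ± 0.30 SE, adjusted p = 0.0105). These counts cannot tell transcripts with and without the deleted exons apart, and their direction goes against the label. Each direction below is therefore one between libraries as labelled. Across genes, Het1 correlated more closely with the Ko libraries (Pearson r of 0.801 to 0.815) than with Het2 (0.790) or Het3 (0.787).

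Foxi1 was close to undetected in the libraries labelled Ko. It had 2.06, 2.07 and 0 normalized counts in Ko1, Ko2 and Ko3, against 54.8, 190 and 18.8 in Het1, Het2 and Het3. The groups did not overlap, and Het2 stood highest. Behind these values were 2, 2 and 0 reads in Ko1, Ko2 and Ko3, and 98, 267 and 13 in Het1, Het2 and Het3. Pooled over libraries, the rate of reads was 64.0-fold lower in Ko, with a 95% exact interval of 24.8 to 236 that covers counting error only, and without Het2 it was 29.5-fold lower. The log2(normalized count + 1) scale understates changes of low genes. On it, the fold change was -4.82 ± 1.41 (SE; unadjusted 95% interval -7.96 to -1.68; limma adjusted p = 0.163), which did not pass the threshold of 0.05. In bulk RNA of sorted cells, fewer cells of a type and less RNA per cell cannot be told apart.

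Ascl3 was read in a single library. It had 0 normalized counts in Ko1, Ko2 and Ko3, against 0, 27.7 and 0 in Het1, Het2 and Het3. All 39 of its reads came from Het2, the library with most Foxi1. With 3 reads over the group set as the floor for Ko, its pooled rate would be 8.81-fold lower in Ko libraries. The exact counting interval begins at 6.83-fold, and both values rest on Het2 alone. With a mean of 4.61 over the 6 libraries, Ascl3 was under the minimum of 10 for testing.

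Cftr had the highest mean normalized count of the 8 genes, and its level did not follow that of Foxi1. It had 313, 381 and 172 normalized counts in Ko1, Ko2 and Ko3, against 414, 0.710 and 313 in Het1, Het2 and Het3. Het2 gave 1 Cftr read among 25210602, while Het1 gave 740 and Het3 217. Thus the library richest in Foxi1, Ascl3 and Atp6v0d2 was nearly without Cftr, and the 3 Ko libraries, nearly without Foxi1, held 120 to 368 Cftr reads each. The limma log2 fold change was 2.18 ± 1.73 (SE; adjusted p = 0.638), and without Het2 it was -0.39 (adjusted p = 0.813), so its sign rests on that library. The ratio of means was 1.19, and the log2 fold change was 0.26 with edgeR (adjusted p = 0.966) and 0.25 with DESeq2 (adjusted p = 0.968). Its 792 reads in Ko and 958 in Het libraries gave a rate 1.22-fold higher in Ko (counting interval 1.11 to 1.34). In GENCODE vM21, an annotation of GRCm38, 129 exon bases of Cftr lie opposite the antisense gene Gm15592, which had 0 to 7.25 normalized counts in a library.

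Bsnd was near the limit of detection, at 3.09, 1.04 and 4.30 normalized counts in Ko1, Ko2 and Ko3, against 0.559, 0 and 1.44 in Het1, Het2 and Het3. Its 7 reads in Ko and 2 in Het libraries gave a ratio of rates of 5.17 with a counting interval of 0.984 to 51.0, so no difference was detectable at this depth.

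Among the pump genes, Atp6v0d2 separated the groups as Foxi1 did, although the order of Het1 and Het3 differed. It encodes the d2 form of the V0 subunit that joins the stalk to the membrane ring. It had 5.14, 1.04 and 1.43 normalized counts in Ko1, Ko2 and Ko3, against 41.4, 486 and 113 in Het1, Het2 and Het3. The groups did not overlap, and Het2 again stood highest. Its 7 reads in Ko and 836 in Het libraries gave a rate 80.9-fold lower in Ko (counting interval 39.1 to 202). Het2 gave 684 of the Het reads, and the rate was 23.1-fold lower without Het2, 137-fold without Het1 and 179-fold without Ko1. The limma log2 fold change was -5.41 ± 1.29 (SE; unadjusted 95% interval -8.29 to -2.53; adjusted p = 0.0993).

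Atp6v0d2 is also used by osteoclasts and macrophages. Of 12 marker genes of those cells, 8 had a lower mean in Ko libraries, and 0 were at 0 in all 6 libraries. Their summed level was 1019 to 3326 normalized counts in Ko and 4846 to 53728 in Het libraries. Lyz2 made up 94.8% of it, and without Lyz2 the sum was 522, 427 and 607 in Ko1, Ko2 and Ko3, against 428, 1180 and 710 in Het1, Het2 and Het3. Its genes differed in which group had the higher mean. Adgre1, which encodes the macrophage antigen F4/80, had 4.12, 2.07 and 0 normalized counts in Ko1, Ko2 and Ko3, against 7.27, 193 and 50.5 in Het1, Het2 and Het3. C1qb, a complement gene of macrophages, averaged 185 ± 143 in Ko and 101 ± 39.6 in Het libraries, and C1qa and Mertk also had higher means in Ko. Acp5, an osteoclast phosphatase gene, had 1.03, 179 and 1.43 normalized counts in Ko1, Ko2 and Ko3, against 48.1, 2.13 and 189 in Het1, Het2 and Het3. Like Adgre1, the markers Csf1r, Cd68 and Ctsk were highest in Het2, at 165, 450 and 286 normalized counts. C1qb, C1qa, Mertk, Acp5 and Lyz2 were highest in other libraries. These genes were picked after their values were seen. The part of these cells in the Atp6v0d2 values was not tested.

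Atp6v1b1 and Atp6v0a4 had their highest values in Ko libraries. Atp6v1b1 encodes the B1 form of the ATP-binding B subunit of V1, and Atp6v0a4 the a4 form of the large V0 subunit. In humans, loss of either causes distal renal tubular acidosis. Atp6v1b1 had 34.0, 126 and 5.73 normalized counts in Ko1, Ko2 and Ko3, against 1.68, 1.42 and 17.3 in Het1, Het2 and Het3. Ko3 lay below Het3, so the groups overlapped, and the limma log2 fold change of 2.66 ± 1.56 (SE; adjusted p = 0.506) did not pass; it was 1.64 without Ko2, and 3.76 without Ko3. Atp6v0a4 had 84.4, 20.7 and 1.43 normalized counts in Ko1, Ko2 and Ko3, against 1.12, 4.26 and 1.44 in Het1, Het2 and Het3. Ko1 and Ko2 were high and Ko3, with 1 read, was level with the Het libraries (limma log2 fold change 2.46 ± 1.66 SE, adjusted p = 0.571; 1.27 without Ko1, and 3.84 without Ko3). Ko2 was the higher of these libraries for Atp6v1b1 and Ko1 for Atp6v0a4. In GENCODE vM21, Atp6v0a4 shares 259 exon bases with D630045J12Rik on its own strand and 62 with Tmem213 on the other, and reads there cannot be assigned with certainty.

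Atp6v1g3 encodes the G3 form of a V1 stalk subunit. It had 31.9, 135 and 25.8 normalized counts in Ko1, Ko2 and Ko3, against 19.0, 112 and 238 in Het1, Het2 and Het3. Its groups overlapped over most of their range (limma log2 fold change -0.73 ± 1.10 SE, adjusted p = 0.830), and without Het3 the log2 fold change was 0.05 (adjusted p = 0.993). Its 179 reads in Ko and 357 in Het libraries gave a rate 1.35-fold lower in Ko (counting interval 1.13 to 1.63).

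**Figure D1:**
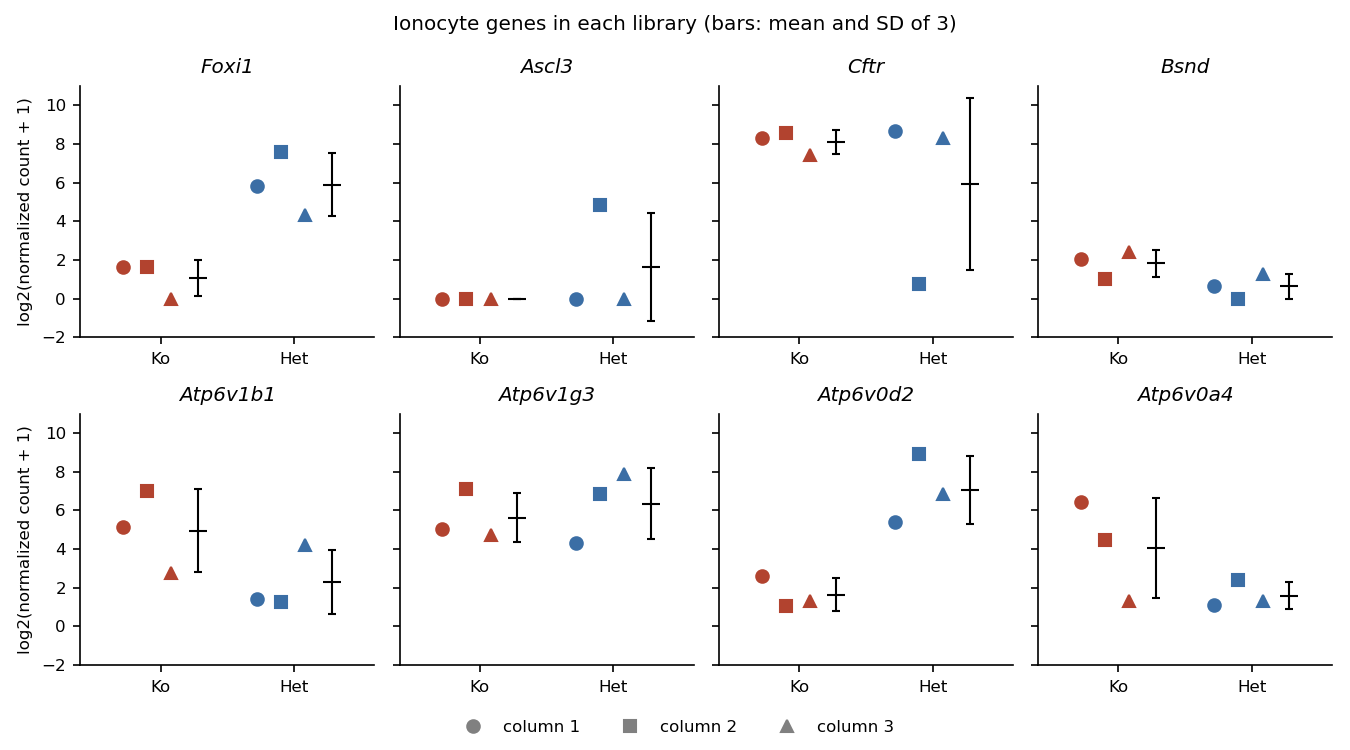
Each panel shows log2(normalized count + 1) of 1 gene in the 3 Ko libraries, on the left, and the 3 Het libraries, on the right, with the mean and SD of each group as a bar. Foxi1 and Atp6v0d2 separate the groups, Cftr is near 0 in Het2 (0.710 normalized counts), and Atp6v1b1 and Atp6v0a4 are highest in Ko2 and Ko1.

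The start regions of 3 of these genes are printed because they hold TGGGAA, a motif of Ikaros, or TGTTTAC, a motif of forkhead factors. Foxi1 had its highest values in Het libraries and the other pair in Ko libraries, though limma called none of the 3. Whether these motifs bear on the levels was not tested. Each runs from 250 bases before to 50 after the start and comes from RefSeq on GRCm38.p6, a build other than the GRCm39 of the counts, written 5′ to 3′ along the gene's strand. Such a region was matched for 6 of the 8 genes. Foxi1 lies at chr11:34208040-34208339 (minus strand), Atp6v0a4 at chr6:38124537-38124836 (minus strand) and Atp6v1b1 at chr6:83742767-83743066 (plus strand). Capitals mark TGGGAA, the core letters bound by Ikaros, in Foxi1 and Atp6v0a4, and TGTTTAC, a forkhead motif, in Atp6v1b1.
Foxi1: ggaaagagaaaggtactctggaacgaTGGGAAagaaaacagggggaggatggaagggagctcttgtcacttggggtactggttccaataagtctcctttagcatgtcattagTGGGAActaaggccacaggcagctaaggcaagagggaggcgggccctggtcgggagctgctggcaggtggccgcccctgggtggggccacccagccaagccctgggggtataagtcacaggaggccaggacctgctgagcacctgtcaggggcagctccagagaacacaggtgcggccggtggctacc
Atp6v0a4: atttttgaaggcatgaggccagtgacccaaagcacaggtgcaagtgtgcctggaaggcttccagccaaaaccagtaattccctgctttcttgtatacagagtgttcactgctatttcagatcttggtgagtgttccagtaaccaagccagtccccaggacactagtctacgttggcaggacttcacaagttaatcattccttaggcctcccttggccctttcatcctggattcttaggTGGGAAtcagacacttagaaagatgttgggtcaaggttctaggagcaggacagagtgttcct
Atp6v1b1: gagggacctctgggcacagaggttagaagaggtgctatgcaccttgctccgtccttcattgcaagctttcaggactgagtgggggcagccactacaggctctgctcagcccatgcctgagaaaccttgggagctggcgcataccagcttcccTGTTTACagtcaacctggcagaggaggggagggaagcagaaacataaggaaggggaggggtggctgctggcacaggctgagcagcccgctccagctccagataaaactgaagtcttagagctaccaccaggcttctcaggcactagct
Both motifs were searched on both strands. TGTTTAC occurred in 1 of the 6 regions, that of Atp6v1b1, where it begins at position -98 from the start, and 3.66% of all 32544 RefSeq start regions of this length hold it. TGGGAA begins at -224 and -138 in the Foxi1 region and at -12 in that of Atp6v0a4, and 25.4% of all regions hold it. The shorter TGTTTA, which TGTTTAC contains, was also present in the Ascl3 region at -180 and -56, and 13.4% of all regions hold it. The regions of Cftr and Atp6v1g3 held none of these letters. A match describes the sequence and does not show a bound site.

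Of the 8 genes, 6 reached a mean of 10 and were tested in the fit over all genes. Limma called 0 of them, where it called 0.814% of 19416 genes, 0.525% lower and 0.288% higher in Ko. An unadjusted p under 0.05 was reached by 2 of the 6, Foxi1 and Atp6v0d2, both lower in Ko, and by 13.6% of all genes, 7.99% lower and 5.62% higher. The same 2 genes had groups that did not overlap, both lower in Ko, as did 9.86% of all genes, while 8.57% had them higher in Ko. EdgeR's quasi-likelihood test on the recovered reads called 0 of the 6, against 0.386% of all genes, of which 0.263% were lower and 0.124% higher in Ko, with adjusted p = 0.111 for Atp6v0d2 and 0.197 for Foxi1. DESeq2 on the same reads called both lower, against 3.96% of all genes called lower and 5.93% called either way, with log2 fold changes of -6.36 ± 1.17 for Atp6v0d2 (SE; adjusted p = 6.24e-06) and -5.93 ± 1.53 for Foxi1 (SE; adjusted p = 0.00372). The tools thus differ on whether these 2 differences exceed the spread between libraries. That spread was wide, with a mean of 87.7 ± 90.0 normalized counts for Foxi1 and 213 ± 239 for Atp6v0d2 in Het libraries (SD, n = 3 each). The authors' deposited table gave log2 fold changes of -6.37 for Atp6v0d2 (adjusted p = 4.98e-06) and -5.92 for Foxi1 (adjusted p = 0.000388), and of its genes with an adjusted p 5.16% were called lower and 3.03% higher in Ko. For the other tested genes, the authors' deposited table gave adjusted p-values of 0.0906 for Atp6v0a4, 0.187 for Atp6v1b1, 0.708 for Atp6v1g3 and 0.958 for Cftr.

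Levels were compared between genes as normalized counts per kb of exon in GENCODE vM21 (mean ± SD, n = 3). In Ko libraries the order of levels per kb was Cftr (37.2 ± 13.7), Atp6v1g3 (34.0 ± 32.4), Atp6v1b1 (12.6 ± 14.4), Atp6v0a4 (7.14 ± 8.73), Bsnd (1.02 ± 0.598), Atp6v0d2 (0.934 ± 0.834), Foxi1 (0.584 ± 0.506) and Ascl3 (0). In Het libraries the order of levels per kb was Atp6v0d2 (78.5 ± 87.9), Atp6v1g3 (65.2 ± 58.3), Foxi1 (37.2 ± 38.2), Cftr (31.2 ± 27.7), Ascl3 (13.2 ± 22.8), Atp6v1b1 (1.55 ± 2.08), Atp6v0a4 (0.457 ± 0.347) and Bsnd (0.242 ± 0.264). Every pair of neighbours overlapped in range in both orders.

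The rest of the V-ATPase was read against a list of 20 genes, of which 19 were tested. Limma, edgeR and DESeq2 each called 0 of them, against 0.814%, 0.386% and 5.93% of all genes. An unadjusted p under 0.05 was reached by 5 in limma, 1 higher and 4 lower in Ko, against 5.62% and 7.99% of all genes. The authors' deposited table called 1, Atp6v0a2, lower (adjusted p = 0.0112), against 5.16% of its genes. Their log2 fold changes ran from -1.14 to 0.40, with 14 negative and 5 positive and a median of -0.26, against -0.05 over all genes tested. Groups did not overlap for 15.8% of the 19, against 18.4% of all genes. Atp6v0b, a proteolipid of the membrane ring, averaged 7955 ± 908 normalized counts in Ko and 6053 ± 1127 in Het libraries (limma log2 fold change 0.40, adjusted p = 0.335). Atp6v1c1, the common C subunit, averaged 527 ± 212 in Ko and 1114 ± 552 in Het libraries, a 2.11-fold lower mean in Ko (limma adjusted p = 0.359). Atp6v0e and Atp6v0c, both V0 membrane subunits, had limma log2 fold changes of -0.40 and -0.28 (adjusted p = 0.349 and 0.597).

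Paralogs of the 4 pump genes, 7 in all, had log2 fold changes of -1.14 to -0.02 with the deposited scaling. Limma called 0 of them, against 0.814% of all genes. Groups did not overlap for 3 of the 7, all lower in Ko, against 9.86% of all genes. Atp6v0d1, the common d form, had 1384, 1573 and 2137 normalized counts in Ko1, Ko2 and Ko3, against 2385, 2798 and 2278 in Het1, Het2 and Het3 (limma log2 fold change -0.57 ± 0.22 SE, adjusted p = 0.298). Its groups did not overlap, at a mean 1.46-fold lower in Ko, where that of Atp6v0d2 was 84.0-fold lower. The common B form Atp6v1b2 averaged 1659 ± 44.9 in Ko and 2176 ± 563 in Het libraries (limma adjusted p = 0.547). The common G form Atp6v1g1 averaged 3672 ± 343 in Ko and 4125 ± 153 in Het libraries without overlap (limma adjusted p = 0.697). Atp6v1g2, known from neurons, averaged 122 ± 94.6 in Ko and 80.0 ± 1.49 in Het libraries (limma adjusted p = 0.997). Of the a forms, Atp6v0a1 averaged 1103 ± 132 in Ko and 1354 ± 395 in Het libraries (limma adjusted p = 0.733). Atp6v0a2, a form of the Golgi, averaged 256 ± 68.9 in Ko and 553 ± 60.2 in Het libraries without overlap (limma adjusted p = 0.210). Tcirg1, the a3 form of lysosomes and osteoclasts, averaged 404 ± 215 in Ko and 665 ± 125 in Het libraries (limma adjusted p = 0.445).

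**Figure D2:**
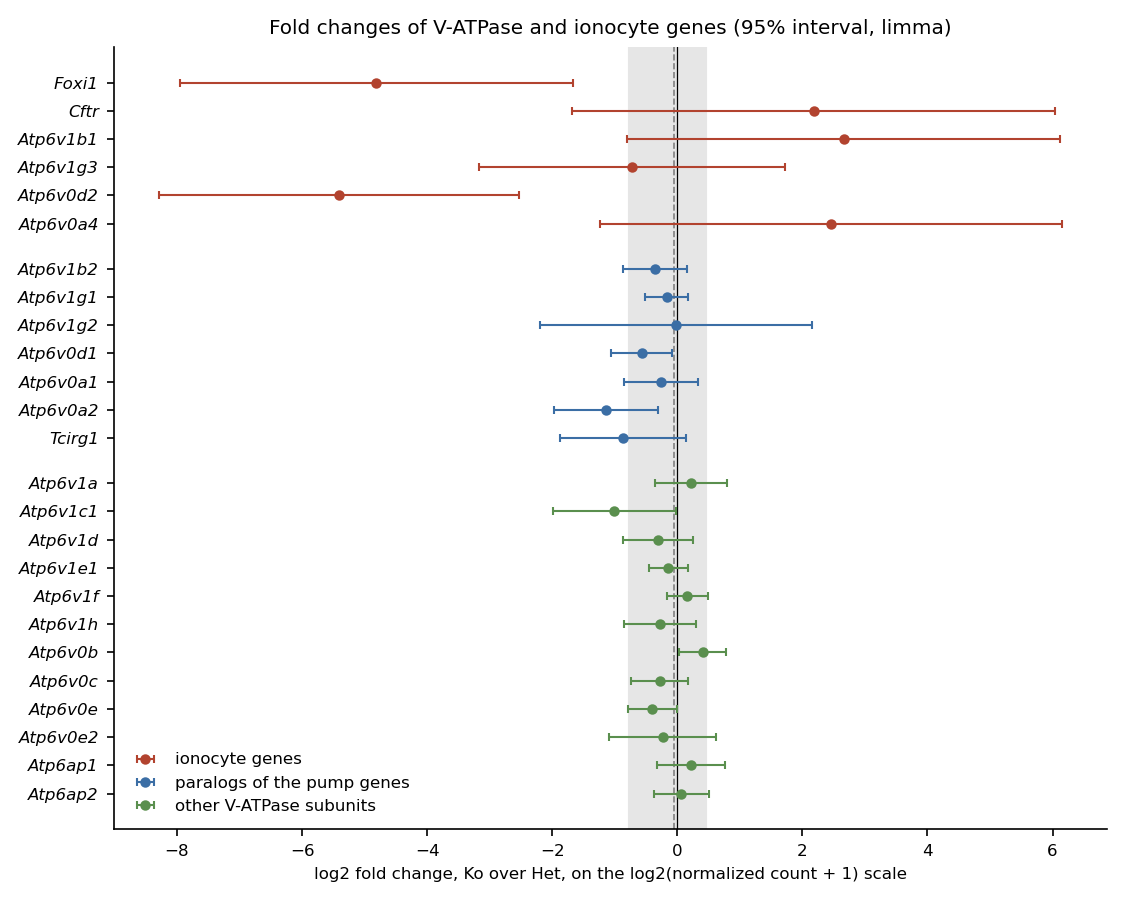
Points show the limma log2 fold change of Ko over Het on the log2(normalized count + 1) scale and bars its 95% interval, for the 6 tested ionocyte genes, the paralogs of the pump genes and other V-ATPase subunits; grey shading spans the middle 50% of all genes tested, from -0.78 to 0.46, and the dashed line is their median of -0.05. The intervals of Atp6v0d2 and Foxi1 end at -2.53 and -1.68, and the common V-ATPase genes lie between -1.14 and 0.40. These intervals are not adjusted for the number of genes tested, and limma called neither Atp6v0d2 nor Foxi1.

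To see how much of each subunit's RNA came from the ionocyte form, normalized counts per kb were compared. That of the ionocyte form was set against the sum over all forms of the subunit in the same library. This share does not depend on library scaling. Atp6v0d2 made up 0.245%, 0.0435% and 0.0442% of the d subunit in Ko1, Ko2 and Ko3, against 1.13%, 10.3% and 3.16% in Het1, Het2 and Het3. Every Het share exceeded every Ko share. Atp6v1b1 made up 2.36%, 8.66% and 0.416% of the B subunit in Ko1, Ko2 and Ko3, against 0.124%, 0.0810% and 0.753% in Het1, Het2 and Het3. Atp6v0a4 made up 6.58%, 1.50% and 0.0782% of the a subunit in Ko1, Ko2 and Ko3, against 0.0482%, 0.241% and 0.0607% in Het1, Het2 and Het3. For both genes Ko3 lay within the Het range. Atp6v1g3 made up 0.499%, 1.96% and 0.467% of the G subunit in Ko1, Ko2 and Ko3, against 0.278%, 1.53% and 3.42% in Het1, Het2 and Het3. The other forms thus carried most of each subunit's RNA in all 6 libraries. Protein was not measured, and bulk values do not give the share within a cell type. Two-sided exact permutation tests gave p = 0.1 for the d subunit, the smallest that 3 against 3 allows, 0.2 for B and for a, and 0.7 for G. Adjusted over the 4 shares by the Benjamini-Hochberg method, these exact p-values were 0.267 for d, B and a and 0.7 for G.

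**Figure D3:**
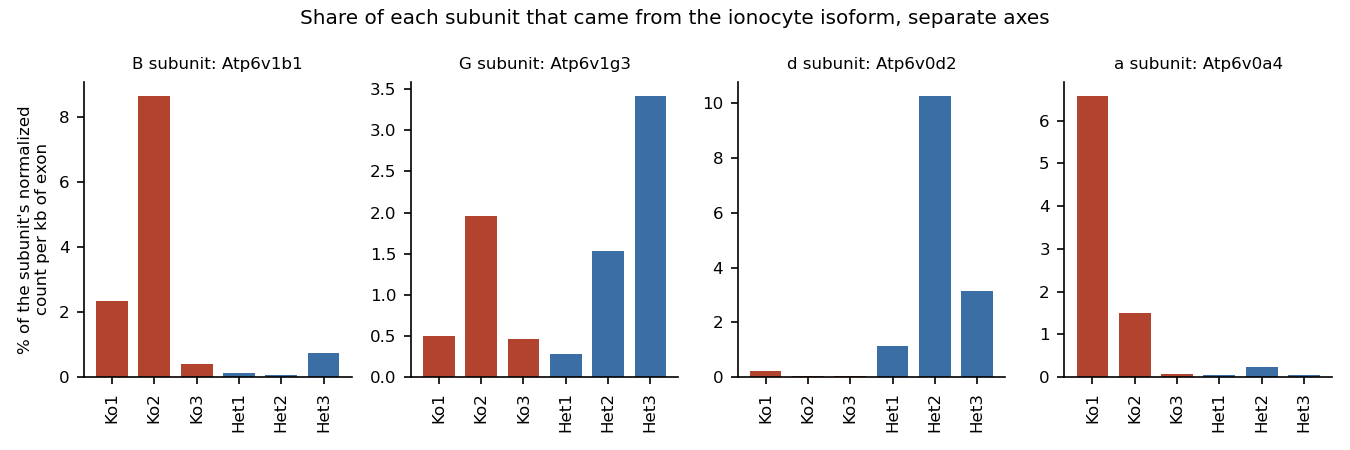
Bars give the percentage of each V-ATPase subunit's summed normalized count per kb that came from the ionocyte form, with Ko libraries left of Het libraries and an axis from 0 in each panel. Atp6v0d2 reached 10.3% of the d subunit in Het2 and at most 0.245% in a Ko library, while Atp6v1b1 and Atp6v0a4 peaked at 8.66% in Ko2 and 6.58% in Ko1.

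Other genes of ionocytes and kidney intercalated cells made up a list of 31, of which 21 were tested. Limma and edgeR called 0 of them, against 0.814% and 0.386% of all genes. An unadjusted p under 0.05 was reached by 8 in limma, 1 higher and 7 lower in Ko, against 5.62% and 7.99% of all genes. DESeq2 called 4, of which 1 was higher and 3 were lower in Ko, against 1.97% and 3.96% of all genes. The authors' deposited table called 5 lower, against 5.16% of its genes. These were Slc4a9 (adjusted p = 0.000448), Parm1 (0.00258), Car12 (0.0143), Rhbg (0.0268) and Slc4a11 (0.0332), and Hepacam2 had an adjusted p of 0.0569 there. The median log2 fold change was -0.58, with 15 negative and 6 positive, and groups did not overlap for 33.3% of the 21, against 18.4% of all genes. Slc4a9, the anion exchanger AE4 of intercalated cells, had 6.17, 2.07 and 22.9 normalized counts in Ko1, Ko2 and Ko3, against 120, 114 and 244 in Het1, Het2 and Het3. Its groups did not overlap, at a mean 15.3-fold lower in Ko (limma adjusted p = 0.119, DESeq2 adjusted p = 0.00444). Car12, a membrane carbonic anhydrase, averaged 322 ± 201 in Ko and 1163 ± 345 in Het libraries (limma adjusted p = 0.105, DESeq2 adjusted p = 0.00433). Parm1, which encodes a mucin-like membrane protein, averaged 1791 ± 164 in Ko and 3269 ± 553 in Het libraries (limma adjusted p = 0.0897, DESeq2 adjusted p = 0.00402). Hepacam2, an adhesion protein gene that tuft cells also express, averaged 8560 ± 1859 in Ko and 5217 ± 782 in Het libraries (limma adjusted p = 0.133, DESeq2 adjusted p = 0.0138). Atp6v1c2, the C2 pump form of intercalated cells, was singled out after its values were seen. It had 158, 2.07 and 1.43 normalized counts in Ko1, Ko2 and Ko3, against 210, 161 and 157 in Het1, Het2 and Het3 (limma adjusted p = 0.273). Ko1, where Atp6v0a4 was highest, was level with the Het libraries for this subunit, and Ko2 and Ko3 were nearly without it.

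**Figure D4:**
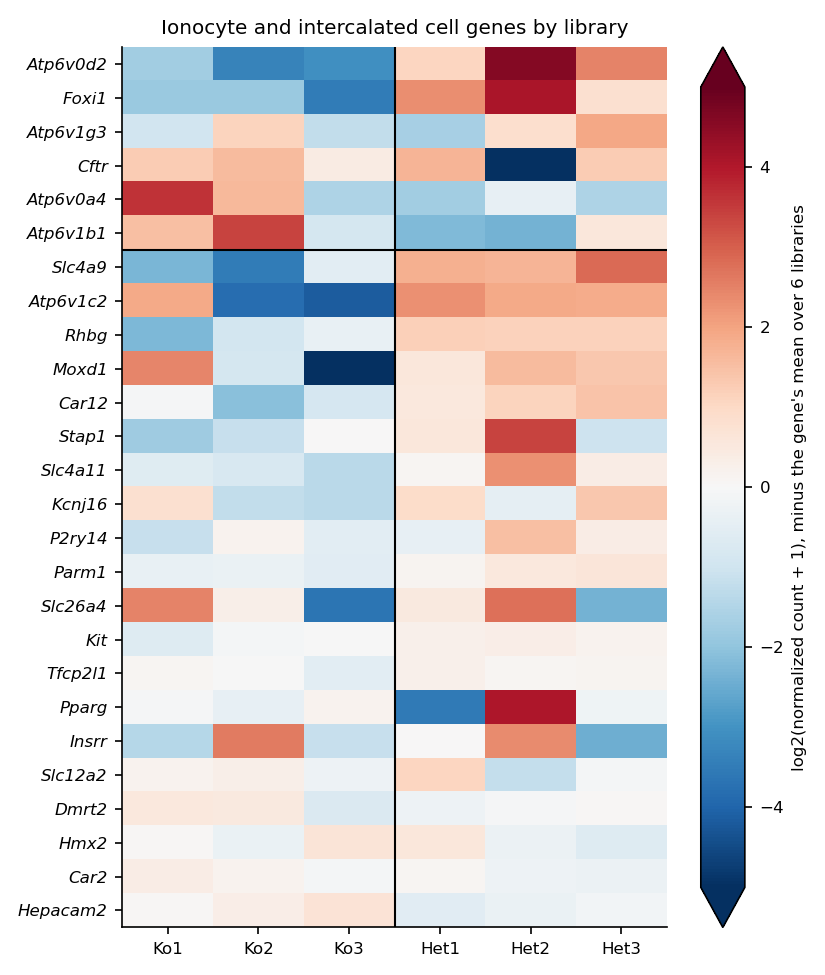
Each row is 1 tested gene, with the 6 ionocyte genes above the black line and 20 of the 21 other ionocyte and intercalated cell genes beneath it, and columns are the 3 Ko libraries left of the 3 Het libraries. Colour gives log2(normalized count + 1) minus the gene's mean over the 6 libraries, from blue (lower) to red (higher), and no library is high for all rows: Het2 is highest for 2 of the 6 and for 6 of the 21, against 18.7% of all genes tested.

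Chloride channels and regulators of CFTR made up a list of 13, of which 11 were tested. Limma and edgeR called 0 of them, against 0.814% and 0.386% of all genes. An unadjusted p under 0.05 was reached by 3 in limma, all lower in Ko, against 7.99% of all genes. DESeq2 called 1 lower, Clca1, against 3.96%. The authors' deposited table also called Clca1 lower (adjusted p = 6.00e-05), against 5.16% of its genes called lower. The median log2 fold change was -0.41. Clca1, a secreted regulator of chloride channels made by goblet cells, had 0, 13.5 and 1.43 normalized counts in Ko1, Ko2 and Ko3, against 75.5, 284 and 740 in Het1, Het2 and Het3 (limma adjusted p = 0.0727, DESeq2 adjusted p = 1.26e-06). Clcn3, an endosomal chloride-proton exchanger, averaged 2225 ± 54.2 in Ko and 3276 ± 555 in Het libraries (limma adjusted p = 0.232). Slc26a9, an epithelial chloride channel, averaged 11.4 ± 9.07 in Ko and 64.4 ± 30.4 in Het libraries (limma adjusted p = 0.357). Ano1, the calcium-activated chloride channel, averaged 36.9 ± 28.4 in Ko and 133 ± 94.9 in Het libraries (limma adjusted p = 0.468).

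The genes whose pattern over the 6 libraries was most like that of Foxi1, by Pearson r of log2(normalized count + 1) among 12085 genes with a mean of at least 50, were Mgll, Ivl, Aldoa, Bst2 and Atmin, with r of 0.986 to 0.991. All 5 were highest in Het2, which their choice by likeness to Foxi1 favours, and limma called 0 of them. Ivl, the involucrin gene of differentiating keratinocytes, had 8.23, 2.07 and 0 normalized counts in Ko1, Ko2 and Ko3, against 234, 1123 and 69.3 in Het1, Het2 and Het3. For Cftr the most similar were Zscan30, Taf7, Ccdc15, Ccdc144b and Kantr, with r of 0.983 to 0.997. All 5 were lowest in Het2, as their choice by likeness to Cftr favours. Zscan30 had 111, 110 and 68.8 normalized counts in Ko1, Ko2 and Ko3, against 105, 2.84 and 118 in Het1, Het2 and Het3. These values describe 6 libraries that differ in depth and genotype label, and carry no test. Among the 6 tested ionocyte genes, Het2 was highest for 2, Ko1, Ko2, Het1 and Het3 for 1 each and Ko3 for 0. Over all genes tested, each library was highest for 15.8% to 18.7%, so 6 genes are too few to read a pattern from these counts. Ascl3, which was not tested, was read in Het2 alone.

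Markers of other cell types that thymic preparations can hold were summed per library. Markers of microfold cells summed to 25171 to 27231 normalized counts in Ko and 40132 to 56052 in Het libraries, and limma called 2 of 9 lower, against 0.525% of all genes. The 9 did not move together, with 6 negative and 3 positive log2 fold changes. Groups did not overlap for 3 lower and 1 higher in Ko, against 9.86% and 8.57% of all genes. Markers of Aire-stage medullary epithelium summed to 7283 to 9851 in Ko and 13325 to 49609 in Het libraries, with 1 of 10 called lower. Both sums separated the groups, also without their most abundant gene. The sum for secretory cells was 8584 to 106689 in Ko and 136076 to 202143 in Het libraries, with 4 of 10 called lower. Reg3g made up 68.5% of it, and without Reg3g the sum was 7052, 80788 and 13665 in Ko1, Ko2 and Ko3, against 22094, 22866 and 45629 in Het1, Het2 and Het3. Ko2 was then above every Het library, and Bpifa1 alone had 71635 reads in Ko2. Of the 10 secretory genes, 9 had a lower mean in Ko. Groups did not overlap for 6, all lower in Ko, against 9.86% of all genes, and the median log2 fold change was -2.90. For ciliated cells the sum was 6005 to 6559 in Ko and 6570 to 19154 in Het libraries, with 1 of 9 tested called lower. Without Tppp3 the summed levels overlapped, at 2305 to 2792 in Ko and 2058 to 10726 in Het libraries. Taken gene by gene, 7 of the 9 tested had groups that did not overlap, all lower in Ko, against 9.86% of all genes. Their list had a median log2 fold change of -3.40. Sums for keratinocytes overlapped, at 10776 to 26929 in Ko and 12850 to 21774 in Het libraries, as did those for neuroendocrine cells, at 1341 to 2722 and 2552 to 3507. Thymocyte markers summed to 585 to 1157 in Ko and 144 to 524 in Het libraries, and without Themis to 151 to 249 in Ko and 85.2 to 444 in Het libraries. Limma called 0 genes of the keratinocyte, neuroendocrine and thymocyte lists, against 0.814% of all genes. No listed gene was at 0 in all libraries. The part of these cells in the Foxi1 and Atp6v0d2 values was not tested.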

How the data were processed

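RNA of L1CAM-sorted thymic tuft cells was measured in 3 KO and 3 WT samples. The authors deposited normalized counts per gene, a signal in which each library's reads are divided by a size factor, per the file headers and values, and a comparison table with log2 fold changes, standard errors, a Wald score and p-values. The submitters' processing notes name STAR 2.7.9a, GRCm39 and DESeq2; not given in the sources used here were the read counter, annotation and strand setting. Dividing by the step of each column recovered whole reads for 100% of values within 0.01 reads. No table column ties to a single sample, so Ko and Het columns were used as replicates of their groups.

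Symbols were found for 55144 of the 55471 gene IDs. The test, limma 3.58.1 in R 4.3.3 with eBayes, trend on, ran two-sided on log2(value + 1) for the 19416 genes whose average over the libraries reached 10, with Benjamini-Hochberg adjustment over all genes tested. EdgeR 4.0.16 and DESeq2 1.42.0 on recovered reads, other pseudocounts, filters and scalings, a column-number block and leaving out each library were alternatives. The fit was also run on simulated data, with changes planted only in genes with a mean of at least 50. Foxi1, Atp6v1b1 and Atp6v0a4 had lower means, so that run does not cover them, and its outcome is not reported here. Intervals on reads are exact, at 95%, and cover counting error only. Intervals on log2 fold changes are not adjusted for the number of genes tested. The genes and lists were chosen with earlier results of these data known. All 8 genes were named; from the ionocyte, V-ATPase and chloride lists, those past the test or otherwise up to 4 with the smallest limma p, every paralog of a pump gene, and the 5 genes most like Foxi1 and Cftr in pattern. Marker lists of other cells were given by their summed levels and, for some, by counts of genes and median fold changes. Any of their genes named are examples. The values of 1 gene of the ionocyte and intercalated cell list are not reported here.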

Additional observations from a re-analysis of the deposited data

How the results depend on the processing

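Limma called 158 of 19416 genes, and this number was 75 with edgeR, 1151 with DESeq2 and 87 with the column number as a replicate block. Leaving out 1 library gave between 0 and 81 calls: 0 without Het2 (2127 at an unadjusted p under 0.05), 0 without Het3 (2085), 15 without Ko3, 54 without Ko2, 74 without Ko1 and 81 without Het1. Same-numbered columns did not deviate together (correlations of 0.02, 0.02 and -0.02), so the numbers are not shown to pair the libraries. DESeq2 called 2 of the ionocyte genes, 4 of the other ionocyte and intercalated cell genes and 1 chloride gene, where limma called 0 of each, and all other settings also gave 0 of the ionocyte genes. Leaving out 1 library moved the log2 fold change of Cftr between -0.39 (without Het2) and 3.57 (without Het1), and that of Atp6v1g3 between -1.74 (without Het1) and 0.050 (without Het3); both signs changed, and the cause was not tested. It moved that of Atp6v0a4 between 1.27 (without Ko1) and 3.84 (without Ko3), and that of Atp6v1b1 between 1.64 (without Ko2) and 3.76 (without Ko3). Leaving libraries out of the pooled read ratios, a choice made after seeing the data, gave 29.5 to 87.8-fold lower for Foxi1 and 23.1 to 179-fold lower for Atp6v0d2. Foxi1 and Atp6v0d2 were lower in Ko under every setting that tested them, with log2 fold changes of -1.99 to -5.93 and -2.83 to -6.36 and adjusted p of 0.00372 to 0.378 and 6.24e-06 to 0.326. A minimum mean of 50 left Foxi1, Atp6v1b1 and Atp6v0a4 untested. Depth limits the Ko values of Ascl3, Bsnd, Foxi1 and Atp6v0d2, which rest on at most 5 reads a library.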
